A study of Mus musculus with 20 samples.

Results

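The 8 genes described here encode transcription factors that carry the timing of the circadian clock to its output genes: Dbp, Tef, Hlf, Nfil3, Ciart, Bhlhe40, Bhlhe41 and Rora. They were taken by symbol from the platform annotation of the array, keeping the probe sets that name exactly 1 gene. This gave 21 of the 45037 probe sets that are not controls, and 8 of the 18193 genes with a probe set of their own. RNA came from the livers of male mice of the inbred strain C57BL/6J. The high-fat mice received 45% and the low-fat mice 10% of their energy from fat for 4 weeks. Both groups had been bought at an age of 3 weeks and had eaten the low-fat diet for 1 week before. They were fasted for 16 h and killed on day 30, and the labels give their age as 8 weeks. Each diet had 10 mice with 1 array each, numbered here by the replicate number in the labels. The light phase of the housing is stated, but the sources used here do not give the clock time at which each mouse was killed. Groups given MSXH with the high-fat diet are also described by the labels and were not analysed here.

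The clock of liver cells is a loop in which CLOCK or NPAS2 pairs with ARNTL, binds E-box sequences and switches on the Per and Cry genes, whose proteins then block the pair. DBP, TEF and HLF, the PAR bZIP activators, bind D-box sequences in genes of liver metabolism, and NFIL3 competes for the same D-boxes as a repressor. CIART, BHLHE40 and BHLHE41 act back on the loop by repressing E-box genes, and RORA activates genes with a ROR element, where the REV-ERB proteins NR1D1 and NR1D2 repress. In mouse liver several of these transcripts, Dbp above all, change strongly over the day.

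Promoter windows are shown for the genes whose window holds a clock motif, since E-boxes and ROR elements are the sequences that factors of the loop are known to bind. RefSeq windows of assembly GRCm38.p6, from 250 bases before to 50 bases after a transcription start, matched 7 of the 8 genes, all but Bhlhe40, with 8 windows. The motifs searched on both strands were the E-box CACGTG, the D-boxes TTATGTAA and TTACGTAA, and the ROR element cores TAGGTCA and TGGGTCA. Capitals mark the matches below. The windows lie at chr15:81802423-81802722 and chr15:81811164-81811463 on the plus strand for Tef, and on the minus strand at chr3:95882179-95882478 for Ciart, chr6:145865371-145865670 for Bhlhe41 and chr13:52980990-52981289 for Nfil3.
Tef, first start: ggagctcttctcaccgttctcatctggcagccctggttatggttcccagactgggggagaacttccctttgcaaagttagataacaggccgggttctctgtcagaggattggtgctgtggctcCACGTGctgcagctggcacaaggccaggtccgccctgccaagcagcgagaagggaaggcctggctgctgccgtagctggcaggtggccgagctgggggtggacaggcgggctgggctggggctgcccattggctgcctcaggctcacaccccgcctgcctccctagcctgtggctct
Tef, second start: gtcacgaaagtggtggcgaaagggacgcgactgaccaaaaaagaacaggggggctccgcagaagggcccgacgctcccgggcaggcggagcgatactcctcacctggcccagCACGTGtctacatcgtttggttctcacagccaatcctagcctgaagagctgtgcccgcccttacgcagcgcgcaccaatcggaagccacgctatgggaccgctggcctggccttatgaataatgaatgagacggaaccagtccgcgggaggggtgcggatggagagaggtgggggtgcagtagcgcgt
Ciart: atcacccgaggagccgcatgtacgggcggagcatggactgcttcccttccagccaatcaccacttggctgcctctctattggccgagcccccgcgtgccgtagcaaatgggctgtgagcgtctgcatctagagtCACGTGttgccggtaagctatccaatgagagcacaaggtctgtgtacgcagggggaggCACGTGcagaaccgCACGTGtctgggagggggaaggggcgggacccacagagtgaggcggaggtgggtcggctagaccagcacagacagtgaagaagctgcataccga
Bhlhe41: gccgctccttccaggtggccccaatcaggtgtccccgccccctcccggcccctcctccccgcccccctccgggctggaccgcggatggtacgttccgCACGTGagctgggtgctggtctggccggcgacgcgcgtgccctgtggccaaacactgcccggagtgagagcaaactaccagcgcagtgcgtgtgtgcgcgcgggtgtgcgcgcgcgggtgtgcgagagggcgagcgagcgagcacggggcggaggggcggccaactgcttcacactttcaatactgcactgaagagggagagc
Nfil3: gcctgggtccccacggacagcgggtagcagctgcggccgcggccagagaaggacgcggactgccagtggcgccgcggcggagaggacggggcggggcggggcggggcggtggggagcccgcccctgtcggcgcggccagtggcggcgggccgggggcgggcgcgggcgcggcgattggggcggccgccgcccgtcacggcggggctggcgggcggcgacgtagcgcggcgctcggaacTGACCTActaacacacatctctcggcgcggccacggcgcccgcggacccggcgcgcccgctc

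The E-box stood in 4 of the 8 windows, against 7.15% of the 32851 windows of all genes. Ciart held 3 of them, beginning 116, 58 and 44 bases before the start. Tef held 1 at each start, 127 and 138 bases upstream, and Bhlhe41 1 at 153 bases upstream. The Nfil3 window held TAGGTCA on the strand opposite to the one printed, so that it reads TGACCTA there, 12 bases before the start; 2.61% of all windows hold this core. The D-boxes, found in 0.938% and 0.119% of all windows, and the core TGGGTCA, found in 3.98%, were in none of the 8. The windows of Dbp, Hlf and Rora held none of the motifs. These are matches of letters and were not tested as binding sites.

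The deposited value of a probe set is a score that runs like a log2 intensity in its level, with a median of 6.57 on each array. Its spread is far smaller: the median SD over the 20 arrays was 1.17e-05 for all probe sets. Dbp, for example, had 6.93 ± 0.00880 in high-fat and 6.93 ± 0.00484 in low-fat livers, and Tef had 9.75 ± 0.000358 and 9.75 ± 0.000107 (SD, n = 10 each). The spread therefore differs between probe sets by a factor that is not known, and a difference in score is not a fold change. Values of single mice are given below as standardised scores, that is the score minus the low-fat mean, divided by the SD within diets. Differences are high-fat minus low-fat means in the same SD units with a 95% interval. In whole liver, fewer cells of a type and less RNA per cell cannot be told apart. The 7 hepatocyte markers, among them Alb and Ttr, had mean scores of 11.49 to 14.82, far above the array median. By limma 0 of them passed an adjusted p of 0.05, with 5 higher and 2 lower in high-fat livers. Ttr still had a difference of -3.12 (-4.43 to -1.76, limma adjusted p = 0.241), with the high-fat mouse higher in 0 of 100 pairs. Apoa1 had 1.35 (0.35 to 2.31, limma adjusted p = 0.727), with the high-fat mouse higher in 83. Of the markers of other cell types, Cela1 of pancreatic acinar cells was higher in high-fat livers (difference 1.80, limma adjusted p = 0.0349) and Mylpf of skeletal muscle lower (-1.99, limma adjusted p = 0.0273). They were 1 of 2 measured acinar and 1 of 3 muscle markers. The mean standardised score of the acinar markers ran from -0.14 to 1.95 in high-fat and from -0.89 to 1.57 in low-fat mice, and that of the muscle markers from -1.42 to 0.30 and from -0.73 to 1.03; their part in the results below was not tested.

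Diet was compared first, by limma over all 45037 probe sets. Across the array 1043 probe sets (2.32%) passed an adjusted p of 0.05, 501 higher and 542 lower in high-fat livers. This split depends on the scaling: after centring each array on its median it was 396 higher and 38220 lower, and after quantile normalisation 377 higher and 3783 lower. Of the 21 probe sets of the clock output factors 0 passed, by limma or by the exact rank sum test, under which 1.75% of all probe sets passed. Unadjusted, 4 had a limma p of 0.05 or less, against 15.1% of all probe sets, and these 4 belonged to Hlf, Nfil3 and Rora. Their differences were spread around 0, with 11 above and 10 below it and a median of 0.05, against 0.04 for all probe sets.

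**Figure D1:**
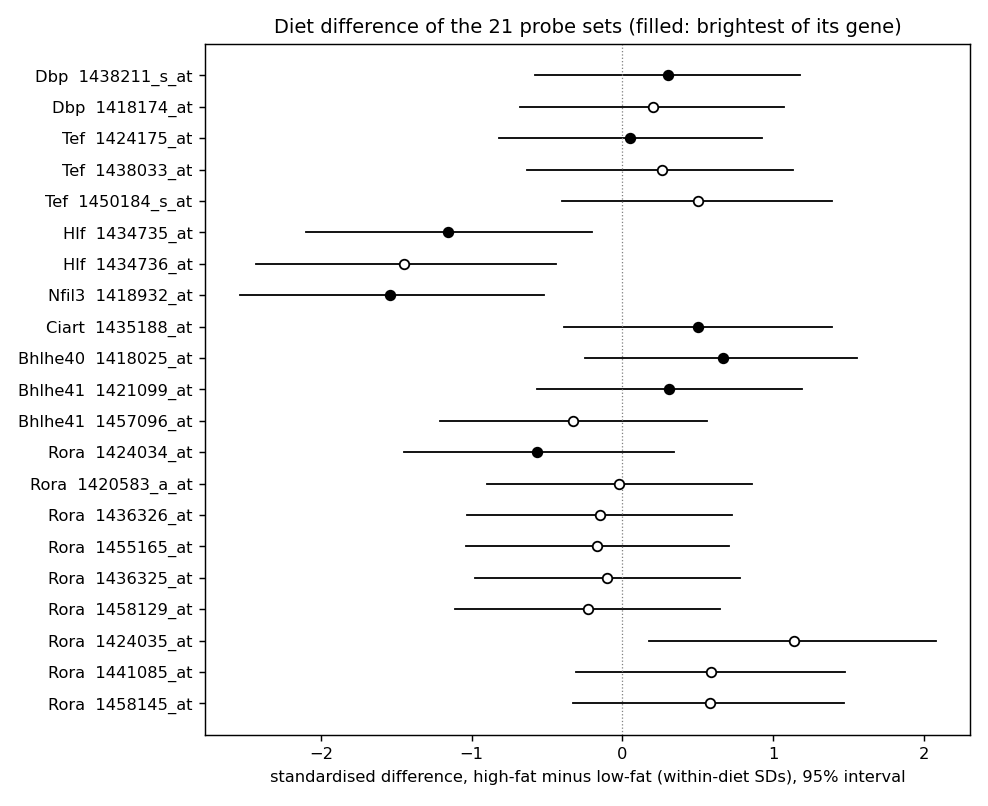
Difference between diets for each of the 21 probe sets (horizontal axis, high-fat minus low-fat mean in within-diet SDs, lines are 95% intervals from 10 mice per diet; filled points mark the probe set with the highest mean of its gene). The intervals of both Hlf probe sets and of Nfil3 lie below 0, that of Rora 1424035_at above it, and the other 17 include 0.

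Among the PAR bZIP activators, Dbp and Tef had nearly the same centre in both diets and Hlf was lower in most high-fat mice. Dbp (probe set 1438211_s_at) had standardised scores with a lowest value of -1.34, a median of 0.11 and a highest of 2.70 in high-fat mice, against -0.68, -0.19 and 1.54 in low-fat mice. Its difference was 0.30 (95% interval -0.58 to 1.18, limma adjusted p = 0.807), and the groups overlapped over the whole low-fat range. The second Dbp probe set, 1418174_at, gave 0.20 and followed the first closely from mouse to mouse, with r = 0.97 across high-fat and 0.98 across low-fat mice. Tef (1424175_at) ranged from -1.69 over a median of -0.08 to 2.15 in high-fat mice, and from -0.51 over 0.07 to 0.73 in low-fat mice. Every low-fat mouse thus lay inside the high-fat range, and the difference was 0.05 (-0.82 to 0.93, limma adjusted p = 0.973). The 2 other Tef probe sets gave 0.26 and 0.50, both with intervals that include 0. They tracked the first across high-fat mice (r = 0.74 and 0.92) but not across low-fat mice (r = -0.38 and -0.24), where the spread of Tef was small.

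Hlf had the lower scores in high-fat livers with both of its probe sets, without passing the adjusted threshold. At 1434736_at the high-fat mice had a lowest value of -3.86, a median of -1.26 and a highest of -0.42, against -1.46, 0.20 and 1.24 in low-fat mice. All 10 high-fat mice were below the low-fat mean, although the ranges overlapped. The difference was -1.45 (-2.43 to -0.44, limma p = 0.00364, adjusted p = 0.0897), and the high-fat mouse was the higher in 15 of the 100 possible pairings of mice across the diets. Probe set 1434735_at, the brighter of the pair, gave -1.16 (-2.10 to -0.20, limma adjusted p = 0.192), with 7 of 10 high-fat mice below the low-fat mean. High-fat replicate 3 was the lowest mouse at both. Averaged over its probe sets, each divided by its SD, Hlf differed by -1.46 and passed (limma adjusted p = 0.0371). After centring both probe sets passed (limma adjusted p = 0.0170 and 0.00735 for 1434735_at and 1434736_at), and after quantile normalisation 1434735_at did (0.0355). Most calls under these scalings were lower, with 38220 lower and 396 higher after centring and 3783 and 377 after quantile normalisation. Such a call is therefore not particular to Hlf.

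Nfil3, the D-box repressor, had the largest difference of the 8 genes. Its single probe set, 1418932_at, had a lowest value of -3.23, a median of -1.66 and a highest of 0.83 in high-fat mice, against -1.38, 0.12 and 0.80 in low-fat mice. Of the high-fat mice 9 were below the low-fat mean, and the highest of all 20 mice was high-fat replicate 3. The difference was -1.54 (-2.54 to -0.52, limma p = 0.00229, adjusted p = 0.0718), with the high-fat mouse higher in 16 of 100 pairs. Without high-fat replicate 3 it was -2.17 and passed (limma adjusted p = 0.0155), and among the probe sets brighter than the median one, where fewer tests were adjusted for, it passed with all mice (adjusted p = 0.0459). It also passed after centring (-1.76, limma adjusted p = 0.0153) and after quantile normalisation (-2.51, limma adjusted p = 0.00267). Centring called 38220 of all probe sets lower and 396 higher, and quantile normalisation 3783 and 377. A negative call under these scalings is therefore not particular to Nfil3.

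None of the E-box repressors differed between diets beyond the spread of the mice at the scaling as deposited. Ciart had a lowest value of -0.95, a median of 0.32 and a highest of 2.70 in high-fat mice, against -0.67, 0.00 and 0.74 in low-fat mice, and its difference was 0.50 (-0.39 to 1.39, limma adjusted p = 0.644). Bhlhe40 ran from -1.16 over 0.91 to 1.94 in high-fat mice and from -1.62 over 0.24 to 1.5 in low-fat mice, with a difference of 0.67 (-0.25 to 1.56, limma adjusted p = 0.515). Both genes overlapped broadly between the diets, though the high-fat mouse was higher in 71 of 100 pairs for Bhlhe40 and in 54 for Ciart. Bhlhe41 had 2 probe sets near or below the array median, at mean scores of 6.56 and 6.00. Their differences of 0.31 and -0.33 had opposite signs and intervals that include 0. The 2 had r = 0.14 with each other across high-fat and 0.70 across low-fat mice. After centring, which called 38220 of all probe sets lower and 396 higher, both Bhlhe41 probe sets were negative and passed (-1.14 and -1.26).

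Rora, the activator at ROR elements, was read by 9 probe sets, of which 3 were higher and 6 lower in high-fat livers. The brightest, 1424034_at, had values of -2.23, -0.62 and 0.66 (lowest, median, highest) in high-fat mice, against -2.22, 0.38 and 1.52 in low-fat mice, and differed by -0.57 (-1.45 to 0.34, limma adjusted p = 0.594). Probe set 1424035_at, with a mean score of 6.81 close to the array median, went the other way with 1.14 (0.18 to 2.08, limma adjusted p = 0.223), and turned to -1.17 after centring and -0.14 after quantile normalisation. The other 7 lay between -0.23 and 0.59. The 5 Rora probe sets with a mean score above 8 varied together, with r of 0.17 to 0.82 (median 0.55) for the residuals from diet means over 20 mice. The 26 pairs that involve any of the 4 dimmer ones had a median r of -0.14 and a range of -0.55 to 0.54. Across high-fat mice alone the brighter 5 also held negative pairs, 1455165_at with 1436325_at (r = -0.22) and with 1436326_at (-0.15), where low-fat mice had 0.54 and 0.68. The brightest probe set, 1424034_at, had r of 0.34 to 0.81 with the other 4 in high-fat mice, and of 0.67 to 0.88 in low-fat mice.

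**Figure D2:**
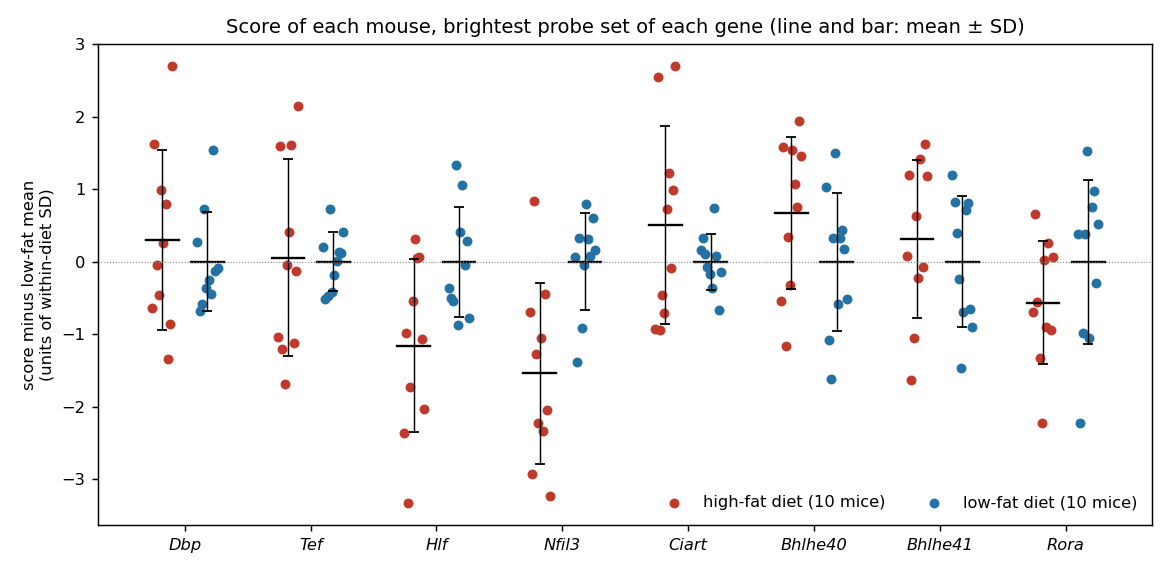
Standardised score of every mouse (vertical axis, score minus low-fat mean in within-diet SDs) for the probe set with the highest mean of each of the 8 genes; red points are the 10 high-fat and blue points the 10 low-fat mice, and lines with bars are mean ± SD. Nfil3 and Hlf sit lower in high-fat mice with overlap, and Tef and Ciart reach from -1.69 to 2.15 and from -0.95 to 2.70 in high-fat mice but only from -0.51 to 0.73 and from -0.67 to 0.74 in low-fat mice.

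The wider scatter of some factors among high-fat mice was the next feature. The SD between high-fat mice was 3.52 times that between low-fat mice for Ciart and 3.34 times for Tef, ratios larger than those of 99.9% of all probe sets. Nfil3 had a ratio of 1.88 and the Dbp probe sets 1.82 and 2.04, at percentiles 95.7, 94.9 and 97.2 of all probe sets. Leaving out each mouse in turn, the first Dbp probe set ran from 1.415 to 2.83, the highest without low-fat replicate 8. Nfil3 ran from 1.48 to 2.59. Rora 1458145_at had 2.18 (percentile 98.1), in a probe set below the array median. Bhlhe40 (1.10) and the brightest Rora probe set (0.76) did not share this, and neither did the other Tef probe sets to the same extent (1.4 and 1.3). Of the 21 probe sets 14 had a ratio above 1, with a median of 1.20 against 0.99 for all probe sets. A limma fit on each mouse's distance from its diet's median gave an unadjusted p of 0.00139 for Ciart, 0.00449 for Tef and 0.0356 for Nfil3. Unadjusted, these 3 of 21 compare with 4.24% of all probe sets; after adjustment 0 of 21 and 0 of 45037 passed (adjusted p = 1.00, percentage called 0), so the difference in spread is a description here. This test was added after the values had been seen.

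Some mice stood at the end of several genes at once. High-fat replicate 10 was the highest of its diet for Dbp, Tef and Ciart, at 2.70, 2.15 and 2.70, and the lowest for Nfil3, at -3.23. High-fat replicate 3 was the highest for Nfil3, at 0.83, and the lowest for Hlf, Ciart, Bhlhe40 and Bhlhe41, at -3.33, -0.95, -1.16 and -1.63. In replicate 10 the activators Dbp and Tef and the repressor Nfil3 thus lay at opposite ends, but the activator Hlf was low, at -2.03. In replicate 3 Dbp was at -0.04, near the middle of its diet. The lowest high-fat mice were replicate 8 for Dbp and replicate 4 for Tef.

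Pearson's r across the 10 mice of each diet, with 1 probe set per gene, gave 28 pairs per diet and 56 relations adjusted together. In high-fat mice 5 pairs passed an adjusted p of 0.05 by permutation, and in low-fat mice 1. The median absolute r was 0.58 in high-fat and 0.19 in low-fat mice, and it was the larger in high-fat mice for 18 of the 28 pairs. By Spearman's rho 0 pairs passed in either diet after adjustment, and unadjusted 12 pairs in high-fat and 2 in low-fat mice had a Pearson p of 0.05 or less. How gene pairs over the whole array correlate within each diet was not tested. The counts and medians therefore cannot be read as particular to these genes.

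**Figure D3:**
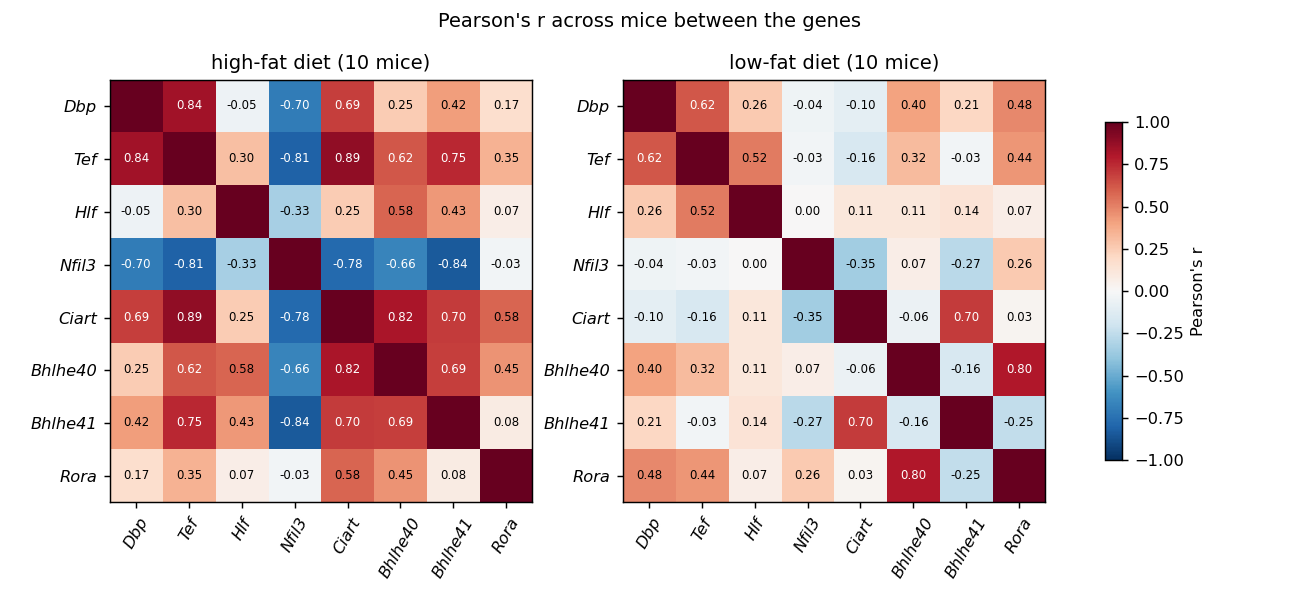
Pearson's r between the 8 genes across 10 high-fat mice (left) and 10 low-fat mice (right); colour and the printed value give r from -1 to 1. In high-fat mice Dbp, Tef, Ciart, Bhlhe40 and Bhlhe41 are all positive to each other, with r from 0.25 to 0.89. The weakest of these are Dbp with Bhlhe40 (0.25) and Dbp with Bhlhe41 (0.42). Nfil3 is negative to all 5 genes (-0.66 to -0.84), while in low-fat mice the same cells of Nfil3 lie between -0.35 and 0.07.

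The strongest pair was Tef with Ciart. In high-fat mice their r was 0.89 (permutation p = 0.00110, adjusted p = 0.0429; rho 0.79, permutation p = 0.00878) and 0.84 without the 2 mice farthest out in Tef, against -0.16 in low-fat mice. The difference between the diets had a permutation p of 0.00266 and an adjusted p of 0.0745 over the 28 pairs, so it did not pass. Dbp and Tef, both activators, had r = 0.84 in high-fat mice (permutation p = 0.00223, adjusted p = 0.0429; rho 0.75, permutation p = 0.0173). Without the 2 mice farthest out in Dbp it was 0.64 (permutation p = 0.0874), so the relation rested partly on them. In low-fat mice the same pair had r = 0.62 (permutation p = 0.0551, adjusted p = 0.206) and rho = 0.88, the highest rho of the low-fat pairs.

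Nfil3 was negative to 5 of the other 7 genes at r of -0.66 or below in high-fat mice, and had -0.33 with Hlf and -0.03 with Rora. With Tef its r was -0.81 (permutation p = 0.00505, adjusted p = 0.0471; rho -0.81, permutation p = 0.00707), and -0.72 without the 2 mice farthest out in Tef, against -0.03 in low-fat mice. With Bhlhe41 it was -0.84 (permutation p = 0.00230, adjusted p = 0.0429; rho -0.72, permutation p = 0.0238), and -0.72 without the 2 mice farthest out in Nfil3, against -0.27 in low-fat mice. With Ciart it was -0.78 and missed the threshold (permutation p = 0.00722, adjusted p = 0.0578). The Bhlhe41 value rests on probe set 1421099_at, which lies below the array median. In high-fat mice that probe set had r of only 0.14 with the other Bhlhe41 probe set.

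The repressors Ciart and Bhlhe40 had r = 0.82 in high-fat mice (permutation p = 0.00455, adjusted p = 0.0471; rho 0.84, permutation p = 0.00369), and 0.91 without the 2 mice farthest out in Ciart, against -0.06 in low-fat mice. Ciart and Bhlhe41 had r = 0.70 in high-fat mice and 0.70 in low-fat mice, with an adjusted permutation p of 0.125 in each. The 1 low-fat pair that passed was Bhlhe40 with Rora, at r = 0.80 (permutation p = 0.00502, adjusted p = 0.0471; rho 0.79, permutation p = 0.00879) and 0.70 without the 2 mice farthest out in Bhlhe40 (permutation p = 0.0504), against 0.45 in high-fat mice. Hlf took little part, with r between -0.33 and 0.58 in high-fat and between 0.00 and 0.52 in low-fat mice. The pairs that passed lay close to the threshold. When each mouse of the diet was left out in turn, Tef with Ciart and Dbp with Tef passed in 2 of 10 cases each, Nfil3 with Bhlhe41, Ciart with Bhlhe40 and, in low-fat mice, Bhlhe40 with Rora in 1 of 10, and Tef with Nfil3 in 0 of 10. Their r kept its sign throughout, for Tef with Nfil3 between -0.87 and -0.74. Over all 28 pairs the difference between diets passed for 0 after adjustment; unadjusted, 3 had a permutation p of 0.05 or less, namely Tef with Ciart, Ciart with Bhlhe40 (0.0104) and Nfil3 with Bhlhe41 (0.0259).

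**Figure D4:**
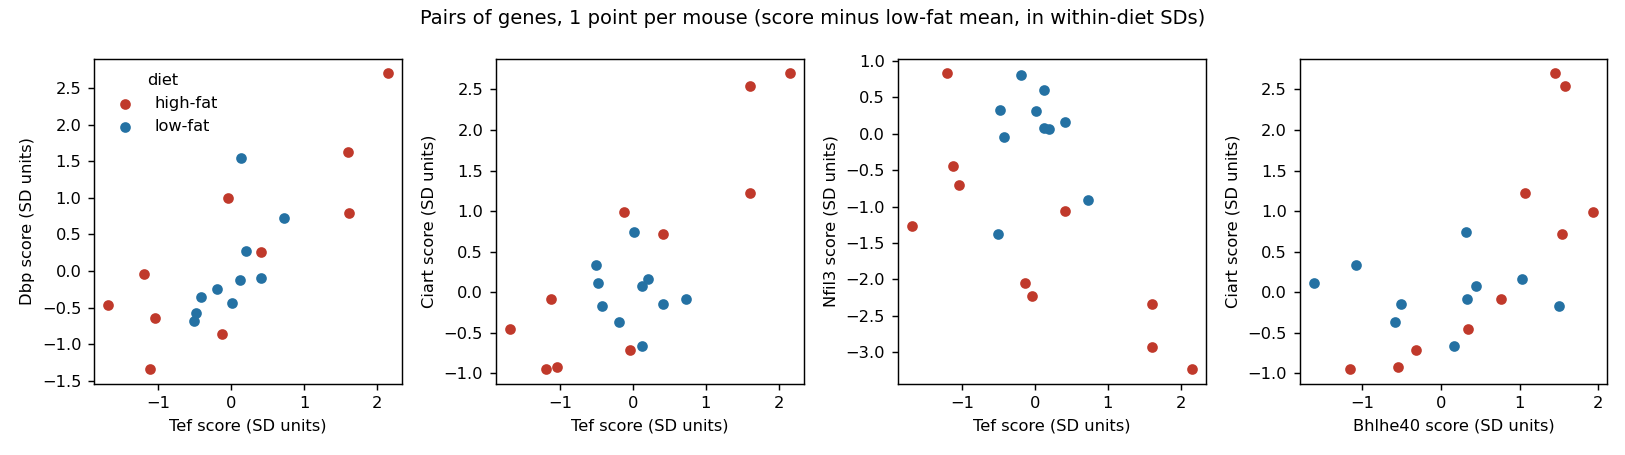
Standardised scores of 4 pairs of genes, 1 point per mouse (red high-fat, blue low-fat, 10 each; axes in within-diet SDs). The high-fat mice spread along a line for Tef with Dbp (r = 0.84), Tef with Ciart (0.89), Tef with Nfil3 (-0.81) and Bhlhe40 with Ciart (0.82), and the low-fat mice sit in a smaller range of Tef and Ciart.

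Each factor was then set against 5 of the 16 measured genes of the clock loop, Arntl, Npas2, Per3, Nr1d1 and Nr1d2, in 40 pairs per diet. The adjustment covers these 80 relations and none with the other clock genes. These relations were added after the values had been seen. The probe sets of the clock genes had mean scores of 7.7 for Arntl, 6.7 for Per3, 7.02 for Nr1d1 and 10.06 for Nr1d2. That of Npas2, at 6.27, lay below the array median. In high-fat mice 7 passed an adjusted permutation p of 0.05 and in low-fat mice 1. How other genes of the array correlate with the 5 clock genes within each diet was not tested. The closest relation was that of Dbp with Arntl, the partner of CLOCK. Arntl had standardised scores with a lowest value of -2.78, a median of -0.38 and a highest of 0.72 in high-fat mice, against -1.02, -0.02 and 1.34 in low-fat mice. Its r with Dbp was -0.98 in high-fat mice (permutation p = 1e-05, the smallest that the permutations can give, adjusted p = 0.0008; rho -0.98, permutation p = 1e-05), and -0.96 without the 2 mice farthest out in Dbp. In low-fat mice it was -0.18 (adjusted permutation p = 0.965). Leaving out each high-fat mouse in turn kept it between -0.98 and -0.97, and past the threshold in 10 of 10 cases. The difference between diets passed (permutation p = 0.00012, adjusted p = 0.0048 over 40 pairs) by Pearson's r, but not by rho (adjusted permutation p = 0.0552). It was the only one of the 40 to pass, with 8 at an unadjusted p of 0.05 or less.

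Per3, a gene of the Per family, followed the activators Dbp and Tef in high-fat mice, but not the activator Hlf (r = 0.15, adjusted permutation p = 0.965). Its r was 0.94 with Dbp (permutation p = 7e-05, adjusted p = 0.0028; rho 0.89, permutation p = 0.00119; 0.85 without the 2 mice farthest out) and 0.93 with Tef (permutation p = 0.00028, adjusted p = 0.00747; rho 0.87, permutation p = 0.00222; 0.87 without the 2). With the repressor Nfil3 it was -0.81 (permutation p = 0.00474, adjusted p = 0.0474; rho -0.87, permutation p = 0.00232; -0.92 without the 2), and with Ciart 0.82 (permutation p = 0.00434, adjusted p = 0.0474; rho 0.76, permutation p = 0.0155). The last rested on the 2 mice farthest out in Ciart, without which it was 0.54 (permutation p = 0.172). Leaving out each mouse in turn, Per3 passed in 10 of 10 cases with Dbp and with Tef, but in 2 of 10 with Nfil3 and in 2 of 10 with Ciart. In low-fat mice Ciart and Per3 had r = -0.66 (adjusted permutation p = 0.164) and Dbp and Per3 -0.01. The Ciart difference between diets had a permutation p of 0.00729 and an adjusted p of 0.0729.

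Dbp was also negative to Npas2, the CLOCK paralogue, in high-fat mice (r = -0.89, permutation p = 0.00083, adjusted p = 0.0166; rho -0.84, permutation p = 0.00392; -0.86 without the 2 mice farthest out). It was positive to the REV-ERB gene Nr1d2 there (r = 0.87, permutation p = 0.00124, adjusted p = 0.0198; rho 0.81, permutation p = 0.00747; 0.83 without the 2), and in low-fat mice Dbp and Nr1d2 had r = 0.67 (adjusted permutation p = 0.132). The low-fat relation that passed was Dbp with Nr1d1 (r = 0.92, permutation p = 0.00153, adjusted p = 0.0204; rho 0.81, permutation p = 0.00758). It fell to 0.52 without the 2 mice farthest out in Dbp (permutation p = 0.189), and low-fat replicate 8 was the highest mouse for both genes. Leaving out each mouse in turn, Dbp passed in 9 of 10 cases with Npas2 and 8 of 10 with Nr1d2 in high-fat mice, and in 8 of 10 with Nr1d1 in low-fat mice.

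**Figure D5:**
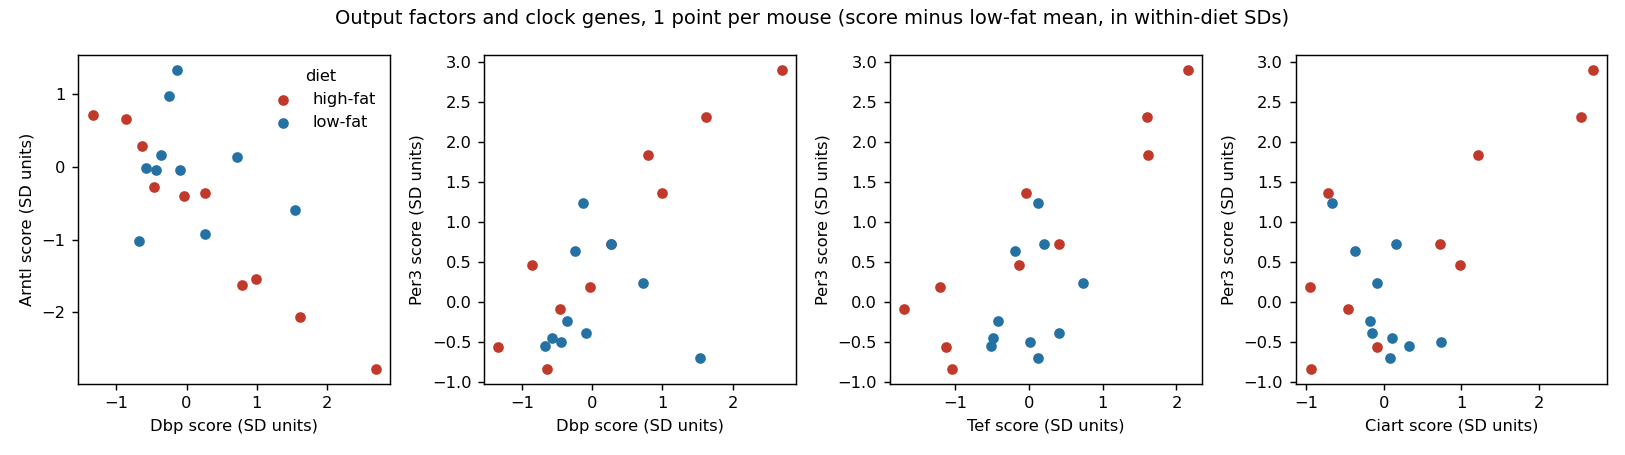
Standardised scores of 4 pairs of an output factor and a clock gene, 1 point per mouse (red high-fat, blue low-fat, 10 each; axes in within-diet SDs). The high-fat mice lie on a falling line for Dbp with Arntl (r = -0.98) and on rising lines for Per3 with Dbp (0.94), Tef (0.93) and Ciart (0.82); the low-fat mice have r = -0.18 for Dbp with Arntl and -0.66 for Ciart with Per3.

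Array-wide measures were set against the 8 genes in the same way. The array median had r of -0.51 to 0.10 in high-fat and -0.62 to 0.56 in low-fat mice, and the mean of the 27 poly-A control probe sets had r of -0.12 to 0.72 in high-fat and -0.53 to 0.11 in low-fat mice. Of these 32 relations 0 passed after adjustment by permutation, and 1, Rora with the poly-A controls in high-fat mice (r = 0.72), had an unadjusted p of 0.05 or less. The poly-A mean is given on a relative scale and not on that of the probe set scores. It was -1.31, -1.45, -1.65 and -2.03 in high-fat replicates 1, 4, 5 and 7, against 0.03 to 1.01 on the other arrays. The part of this split in the wider scatter and in the correlations of high-fat mice was not tested.

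The genes most like each factor were ranked by r of residuals from diet means over the 20 mice among the other 18192 genes, as a description. For Dbp the first were Nr1d2 (0.82), Gstt2 (0.79) and Maff (0.79), with Tef in place 4 and Per3 in place 9, and Arntl stood 5 places from the bottom (r = -0.77). For Tef they were Ppargc1b (0.87), Per3 (0.82) and Patz1 (0.81), with Ciart in place 4 and Dbp in place 5. Other genes of the set ranked far from either end, such as Hlf in place 8110 for Dbp and 2243 for Tef. For Ciart the first were Rhobtb1 (0.85), Btg2 (0.85) and Ppargc1a (0.84), with Tef in place 11. For Nfil3 they were Sgpl1 (0.84), Chka (0.83) and P2ry12 (0.78), with Arntl in place 63, and Ciart stood 10 and Tef 23 places from the bottom. Hlf (-0.25) and Rora (0.08) lay near neither end for Nfil3.

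Like Ciart and Nfil3, the remaining factors had no other clock gene at the head of their lists. For Hlf the first were Tmem129 (0.80), Gm3411 (0.79) and Lmnb2 (0.77), and for Bhlhe40 Kcnk5 (0.83), Map3k6 (0.82) and Foxo1 (0.80). For Bhlhe41 they were Blk (0.87), Alox12e (0.87) and Rassf10 (0.86), and for Rora Tssk2 (0.82), Rab27a (0.82) and Herpud1 (0.76), with Bhlhe40 in place 42.

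In the wider pathway few genes passed the test. Of 18 genes of the clock loop 16 were measured, and 0 rose and 0 fell by limma at an adjusted p of 0.05; the closest were Npas2 with -1.49 (adjusted p = 0.0806) and Cry1 with -1.16 (adjusted p = 0.192), and the median was 0.16. Of 21 rhythmic output genes of the liver 17 were measured, and 0 rose and 0 fell, with a median of -0.22; the closest were Coq10b (1.25, adjusted p = 0.153) and the nuclear receptor gene Nr1i3 (1.25, adjusted p = 0.154). Among 14 bZIP and bHLH relatives of the factors, all measured, 0 rose and 1 fell. It was Usf2, an E-box factor outside the clock, with -2.28 (limma adjusted p = 0.00890), and the median of these relatives was 0.39. All medians are to be read beside 0.04 for all probe sets and the counts beside 2.32%.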

How the data were processed

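Per the labels' protocols, total RNA of each liver was labelled with a 3'-end Affymetrix kit and put on 1 array per mouse. The deposited values are scores per probe set; their summarisation and scaling are not given in the sources used here. limma compares mice within each probe set but moderates its variance with a prior shared by all probe sets (0.778 prior degrees of freedom); an ordinary linear model, which shares nothing, put 903 probe sets and 0 of the 21 past the threshold. Of 45101 probe sets 64 controls were left out; 34945 of the others had 1 gene symbol, 932 several and 9160 are unnamed here. The genes, lists and tests were chosen with earlier results of these data known. limma 3.58.1 (R 4.3.3) was fitted to 20 arrays with Benjamini-Hochberg adjustment, two-sided, threshold 0.05. Correlations used the probe set with the highest mean of each gene and 100000 permutations (Python 3.11.15, scipy 1.17.1, numpy 2.4.6). Named were all probe sets of the 8 genes, list genes past the threshold or else the 2 with the smallest adjusted p, and the 3 genes most alike. The fits were tested on simulated data. Alternatives covered scaling, filters, probe set choice, an exact rank sum test, rho, the replicate block and leaving out each mouse; the tests of spread, of differences in correlation, of clock gene pairs and of array measures were added after the values had been seen. Replicate numbers did not pair mice: 2 of 10 same-numbered pairs correlated above 0.1 (-0.15 to 0.23). Depth does not apply to arrays; their number limits the precision. Protein sequences were not used here.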

Additional observations from a re-analysis of the deposited data

Results flagged for a closer look

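For each of the 21 probe sets the gap between the most extreme mouse and its neighbour was set against the range of its diet group, with Dixon's criterion. Of 42 groups 3 exceeded it, and chance gives about 1 in 20. Hlf 1434736_at had a lowest high-fat mouse, replicate 3, whose gap was 0.594 of the range. Rora 1455165_at had a lowest high-fat mouse, replicate 4, at 0.468, and Rora 1458145_at a highest high-fat mouse, the same replicate 4, at 0.555. The probe set 1458145_at has a mean score of 6.31, below the array median.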

How the results depend on the processing

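Scaling changed most. Array medians ran from 6.56702 to 6.5672, a range wider than the SD of most probe sets, and centring on them put 38616 and quantile normalisation 4164 of all probe sets past the threshold, with 12 and 4 of the 21 probe sets described, all lower in high-fat livers; quantile normalisation left 2676 probe sets constant. Under centring the sign reversed for Tef 1424175_at (-0.218), 1438033_at (-0.27) and 1450184_s_at (-1.19), Bhlhe41 1421099_at (-1.14) and Rora 1424035_at (-1.17), 1441085_at (-1.16) and 1458145_at (-1.17). Under quantile normalisation it reversed for Tef 1424175_at (-0.072) and 1450184_s_at (-1.54), Bhlhe41 1421099_at (-0.63) and Rora 1420583_a_at (0.22), 1455165_at (0.34), 1436325_at (0.079), 1424035_at (-0.14), 1441085_at (-1.05) and 1458145_at (-0.11). Array weights gave -0.016 for Tef 1424175_at. Averaging the probe sets of a gene put 2 genes past the threshold, Hlf and Nfil3, and turned the sign of Bhlhe41 (-0.009) and Rora (0.26), which did not pass; the filter on mean level gave 1 probe set, Nfil3. The replicate block gave 538 probe sets past the threshold and 0 of the 21, and 1 probe set per gene gave 635. Array medians were 6.56714 to 6.56719 in high-fat mice, except for replicate 8 (6.56705). In low-fat mice they were 6.56702 to 6.56706, except for replicates 6, 8 and 9 (6.56720, 6.56711 and 6.56720). Centring subtracts this median from every score of its array. The cause of the changes under the alternatives was not tested.

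Leaving out each mouse gave 0 to 1 of the 21 past the threshold (1 without high-fat replicate 3). Standardised differences ranged from -0.13 to 0.36 for Dbp 1418174_at, -0.20 to 0.27 for Tef 1424175_at, -0.028 to 0.422 for Tef 1438033_at, -0.27 to 0.23 for Rora 1420583_a_at, -0.386 to 0.057 for 1436326_at, -0.318 to 0.059 for 1455165_at, -0.31 to 0.12 for 1436325_at and -0.408 to 0.018 for 1458129_at, and SD ratios from 0.92 to 1.29 for Bhlhe40 and 0.99 to 1.38 for Bhlhe41; the sign of Dbp 1418174_at and Tef 1438033_at turned without high-fat replicate 10, and that of Tef 1424175_at without high-fat replicate 10 (-0.202), 7 (-0.124) or 2 (-0.123) or low-fat replicate 2 (-0.002).

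Pairs past the threshold in high-fat and low-fat mice numbered 0 and 0 by rho, 3 and 0 when probe sets of a gene were averaged, 1 and 0 under centring, 0 and 0 under quantile normalisation, 0 and 0 without the 2 outermost mice, and 8 over the residuals of all 20 mice. Leaving out 1 mouse gave 0 to 5 pairs in high-fat mice and 0 to 1 in low-fat mice, so the count of pairs depends on single mice. With clock genes, pairs in high-fat mice numbered 4 by rho, 1 without the 2 outermost mice, 2 under quantile normalisation and 3 to 10 leaving out 1 mouse (3 without replicate 10); in low-fat mice they numbered 0 without the 2, under centring and under quantile normalisation, and 0 to 2 leaving out 1 mouse. By rho 0 of these correlations differed between diets. Dbp with Arntl in high-fat mice passed by rho, without the 2 outermost mice, under both scalings and without each mouse, from -0.98 to -0.92.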
